A study of Mus musculus with 12 samples.

Results

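The clustered histone genes were taken as every row of the count tables whose Ensembl identifier carries, in GENCODE M21, a symbol that begins with Hist1h, Hist2h, Hist3h or Hist4h. This rule found 70 genes among 54532 rows. The Hist1 cluster on chromosome 13 held 56 of them, the Hist2 cluster on chromosome 3 held 10, the Hist3 cluster on chromosome 11 held 3 and the single Hist4 gene lay on chromosome 6. By product, 6 genes encoded the linker histone H1, 20 encoded H2A, 19 encoded H2B, 12 encoded H3 and 13 encoded H4, counting 3 that are annotated as pseudogenes.

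RNAseq came from 12 cultures of mouse brainstem progenitors (strain C57BL/6, genotype Nestin TVA; p53 floxed, isolated between P3 and P5), kept without serum and with EGF and FGF2 as neurospheres. RCAS vectors, avian retroviruses that enter only cells with the TVA receptor, brought human *ACVR1* WT alone, *ACVR1* R206H alone, *ACVR1* WT together with H3.1K27M, or *ACVR1* R206H together with H3.1K27M, with 3 samples in each group. *ACVR1* is a receptor of the BMP pathway, R206H is an activating change in it, and H3.1K27M is a replication-dependent H3 in which lysine 27 is methionine. Every group carried a delivered *ACVR1*, so that no group shows the cells without vector, and TVA was driven by the *Nestin* promoter. No H3.1 WT was delivered, so that H3.1K27M and the delivery of any H3.1 cannot be told apart. The labels do not say whether the 3 samples of a group came from separate litters, and p-values measure the spread between these samples. For its neurosphere assays the study's methods count cell lines from independent P3 litters and use paired tests, but they do not say this of RNAseq.

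Replication-dependent histones are the proteins that package new DNA, and their genes sit in clusters, lack introns in their classical form and are transcribed mainly in S phase. Their messages classically end in a conserved stem-loop that SLBP (stem-loop binding protein) recognises, not in a poly(A) tail. Replication-independent variants such as H3.3 (*H3f3a*, *H3f3b*) come from polyadenylated messages throughout the cell cycle. Some clustered genes also make polyadenylated transcripts that run past the stem-loop, above all in cells that leave the cycle. Whether poly(A) RNA was selected is not given in the sources used here, and the labels name total RNA.

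Total counts per sample ran from 19315020 to 26456257, and the clustered histone genes took 2665 to 12463 of these. Neural progenitor markers (6 genes) summed to between 4340 and 6470 CPM (normalized counts relative to library size, scaled by TMM factors over the 12 samples) in every sample. *Fabp7* and *Vim* led these sums (means of 2320 and 2040 CPM over the 12 samples). *Nes*, the gene for Nestin, had 404, 131 and 72.5 CPM in *ACVR1* WT replicates 1 to 3 and 236 to 338.5 CPM elsewhere. The *ACVR1* WT samples differed most among themselves. Their 43 S phase genes summed to 3130, 1200 and 920 CPM in replicates 1, 2 and 3, against 1780 to 2300 CPM in the other 9 samples, so that replicate 1 lay above and replicates 2 and 3 lay below all the others. Counts of called genes that change without replicate 1 are given both ways, and what it leaves is the pair with the lowest S phase levels. The 6 microglia markers summed to 4.56 to 28.7 CPM with *ACVR1* WT, 7.8 to 11.3 CPM with *ACVR1* R206H, 1.24 to 1.36 CPM with *ACVR1* WT plus H3.1K27M, and 1.89 to 2.65 CPM with *ACVR1* R206H plus H3.1K27M. Most of what was left in the H3.1K27M samples was *P2ry12*, and *C1qa* was at 0 in 4 of these 6 samples. *P2ry12* went the other way beside *ACVR1* R206H, with 1.01, 0.884 and 1.31 CPM without H3.1K27M and 2.28, 1.54 and 2.5 CPM with it. Of the 4 microglia markers tested there, 1 rose and 3 fell. The 5 fibroblast or meninges markers moved the other way, from 2.04 to 3.3 CPM over both groups without H3.1K27M to 5.31 to 9.56 CPM over both with it. The part of either cell type in the histone results was not tested. In bulk RNA, more cells in S phase and more RNA per cell cannot be told apart.

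Of the 70 genes, 20 had a mean of at least 10 normalized counts over the 12 samples, 41 had fewer and 9 had no count in any sample. The zero rows were *Hist1h2aa*, *Hist1h2ao*, *Hist1h2ap*, *Hist1h2bq*, *Hist2h2aa1*, *Hist2h2aa2*, *Hist2h2bb*, *Hist2h3b* and *Hist2h3c1*, named after their values were seen. Reads that fit more than 1 place were not counted, and a median of 0% of the 50-base stretches in these 9 genes was unique among the annotated transcripts. The median was 42% for the 41 genes with few counts and 70.2% for the 20 with more. In 8 of the 9 genes at 0 the share was at most 6.93%, so that such a row does not show that the gene was silent. The exception was *Hist1h2aa*, with 76.2% unique and still no count.

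The stem-loop was looked for after the stop codon by its known consensus, on the gene's own strand, and was found in 46 of the 70 genes. Only annotated exons of transcripts with a coding sequence were searched, so that pseudogenes were left out. Genes annotated to little more than the stop codon left no room for it, such as *Hist1h3i*, with 411 exon bases for a coding sequence of 408. A gene without a hit may thus still have the element. Among the 20 genes with more counts 16 had it, and in 13 of these the annotation ran on for more than 100 exon bases past it. Among the 41 genes with few counts 25 had it, and 9 ran on that far. The 20 genes are thus largely those annotated with a longer 3′ end. The sequences of 6 genes named below are shown, with the 16 bases of the stem-loop in capitals and 5 bases on either side (GENCODE M21, GRCm38, written 5′ to 3′ on the gene's strand). The consensus fixes many of these 16 letters in every hit, so that likeness between the sequences was partly set by the search.
Hist1h1c (chr13:23739507-23739532, plus strand): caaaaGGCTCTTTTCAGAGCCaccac
Hist1h3a (chr13:23761885-23761910, minus strand): ccaaaGGCTCTTTTCAGAGCCacaca
Hist1h3d (chr13:23576239-23576264, plus strand): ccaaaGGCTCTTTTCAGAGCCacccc
Hist2h3c2 (chr3:96238480-96238505, minus strand): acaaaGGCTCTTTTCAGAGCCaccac
Hist1h4i (chr13:22040961-22040986, minus strand): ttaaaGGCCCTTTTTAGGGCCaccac
Hist3h2ba (chr11:58949344-58949369, plus strand): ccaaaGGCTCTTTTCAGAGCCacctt
The stem-loop letters were the same in *Hist1h1c*, *Hist1h3a*, *Hist1h3d*, *Hist2h3c2* and *Hist3h2ba*, and *Hist1h4i* had a stem of other bases.

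Per length of exon, *Hist1h1c*, a linker histone gene, had the highest mean level over the 12 samples, 68.1 CPM per kilobase. The H2B gene *Hist1h2bc* followed with 42.2 CPM per kilobase, then the H3 gene *Hist1h3a* with 31.3, the H3 gene *Hist1h3b* with 13.7, the H4 gene *Hist1h4i* with 12.3, the H3 gene *Hist1h3i* with 10.5, the H2B gene *Hist3h2ba* with 8.66 and the H2A gene *Hist3h2a* with 5.53 CPM per kilobase. *Hist1h3a*, *Hist1h3b* and *Hist1h3i* held these places only through the samples with H3.1K27M.

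Summed over all 70 genes, the level was 142 ± 11.3 CPM (SD, n = 3) with *ACVR1* WT, 172 ± 6.66 CPM with *ACVR1* R206H, 268 ± 26.9 CPM with *ACVR1* WT plus H3.1K27M and 417 ± 50.5 CPM with *ACVR1* R206H plus H3.1K27M. The 4 groups did not overlap. Leaving out *Hist1h3a*, *Hist1h3b* and *Hist1h3i*, the sums were 142 ± 11.3, 172 ± 6.66, 238 ± 17.4 and 329 ± 37.9 CPM in the same order, again without overlap. Each sum was led by a few genes, since *Hist1h1c* alone had a mean of 57.2, 72.4, 118 and 178 CPM in these groups.

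**Figure D1:**
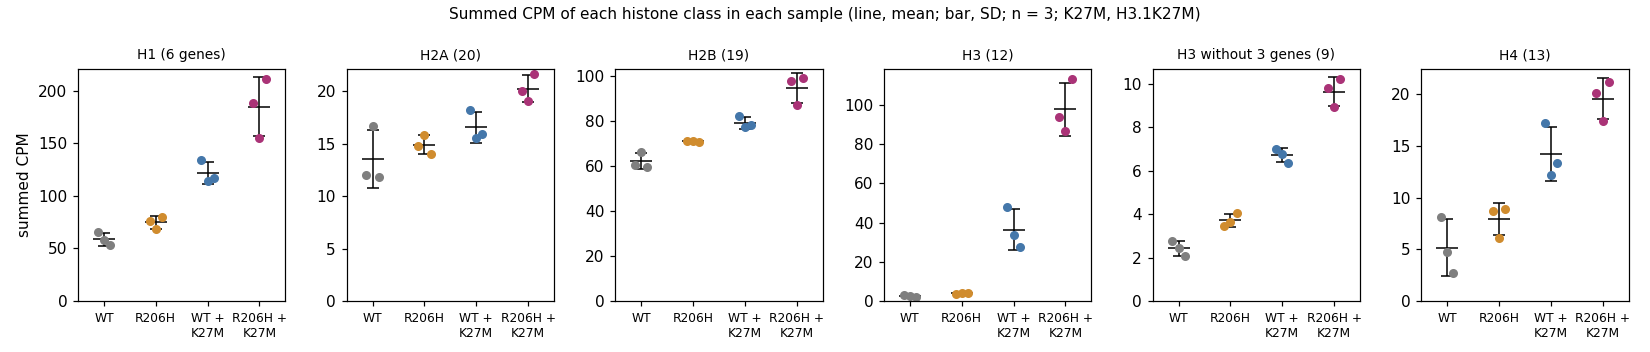
Summed CPM (vertical axis) of the genes of each histone class in each of the 12 samples, by group (horizontal axis); points are samples, lines means and bars SD (n = 3). H1 rose from between 52.9 and 65.5 CPM with ACVR1 WT to between 155 and 211 CPM with ACVR1 R206H and H3.1K27M, and H3 without Hist1h3a, Hist1h3b and Hist1h3i from between 2.09 and 2.78 CPM to between 8.92 and 10.2 CPM.

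The H3 genes come first, because a delivered H3.1 shares most of its sequence with them. All 12 H3 genes had a coding sequence of 408 bases, and each carried the same 21 bases around codon 27, which is shown with the lysine codon in capitals (GRCm38).
Hist1h3a (chr13:23762261-23762281, minus strand): gccgcccgcAAGagcgccccg
Codon 96, where H3.1 has cysteine and H3.2 has serine, read TGT in *Hist1h3a*, *Hist1h3g*, *Hist1h3h* and *Hist1h3i*, and AGC in the other 8. The other 11 coding sequences were 93.6% to 98.8% identical to that of *Hist1h3a*, and *Hist1h3h* shared a run of 230 bases with it. The sequence of the delivered H3.1K27M is not given in the sources used here, so that its reads cannot be told from those of the mouse genes in these counts.

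*Hist1h3a* (ENSMUSG00000069265, chr13:23761853-23762386, an H3.1 gene) had 2, 1 and 0 counts in *ACVR1* WT replicates 1 to 3 and 0, 1 and 1 counts in those of *ACVR1* R206H. It had 640, 340 and 304 counts with *ACVR1* WT plus H3.1K27M, and 1066, 922 and 1479 counts with *ACVR1* R206H plus H3.1K27M. Both groups without H3.1K27M lay within the 3 counts that a count of 0 allows, and all 6 samples with H3.1K27M lay far above them. The ratio of its CPM with against without H3.1K27M was 374 with *ACVR1* WT (95% exact interval 128 to 1820, counting error only) and 1450 with *ACVR1* R206H (402 to 12000). *Hist1h3a* entered the tests through the H3.1K27M samples alone, so that its ratios and counts are given without a p-value for these comparisons.

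*Hist1h3b* (ENSMUSG00000069267, chr13:23752267-23752886, an H3 gene with the H3.2 codon) had 0.141, 0.103 and 0 CPM with *ACVR1* WT and 0.0503, 0.156 and 0.194 CPM with *ACVR1* R206H. With H3.1K27M it had 8.55, 5.92 and 5.64 CPM beside *ACVR1* WT and 19.3, 27.3 and 34.9 CPM beside *ACVR1* R206H. The ratio was 82.4 (95% exact interval 35 to 255) with *ACVR1* WT and 207 (105 to 481) with *ACVR1* R206H. *Hist1h3i* (ENSMUSG00000101972, chr13:21782960-21783370, an H3.1 gene) had 0.0941, 0 and 0.146 CPM with *ACVR1* WT and 0.101, 0 and 0.0486 CPM with *ACVR1* R206H. With H3.1K27M it had 5.64, 4.63 and 3.56 CPM beside *ACVR1* WT and 14, 11.1 and 12.4 CPM beside *ACVR1* R206H. The ratio was 56.3 (23.9 to 175) with *ACVR1* WT and 248 (84.4 to 1200) with *ACVR1* R206H. As for *Hist1h3a*, the samples with and without H3.1K27M were far apart.

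These 3 genes also differed between the receptors once H3.1K27M was present. *ACVR1* R206H with H3.1K27M exceeded *ACVR1* WT with H3.1K27M on the log2 scale by 1.44 for *Hist1h3a* (standard error 0.20, adjusted p = 0.00026 by edgeR), 2.06 for *Hist1h3b* (standard error 0.20, adjusted p = 1.7e-05) and 1.47 for *Hist1h3i* (standard error 0.14, adjusted p = 1.5e-05). The row of *Acvr1*, which may likewise hold reads of the delivered human receptor, moved in the same direction. It had 172, 163 and 368 CPM beside *ACVR1* WT, and 1000, 548 and 1056 CPM beside *ACVR1* R206H, in the H3.1K27M samples (log2 fold change 1.91, adjusted p = 0.00045). Without H3.1K27M it had 53.1, 46.1 and 52.3 CPM beside *ACVR1* WT and 114.3, 82.3 and 86.1 CPM beside *ACVR1* R206H. It thus rose with H3.1K27M beside both receptors (log2 fold changes 2.20 and 3.23, adjusted p = 0.0074 and 1.3e-07). The groups of each H3.1K27M comparison given below therefore also differed in this row. Within *ACVR1* WT with H3.1K27M, replicate 3 had the most *Acvr1* and the least *Hist1h3a*. Within *ACVR1* R206H with H3.1K27M, the samples ranked alike in *Acvr1* and in *Hist1h3a* (50.67, 39.55 and 55.24 CPM of the latter). The part of the amount of vector in the histone results was not tested.

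The shares of the 3 genes varied between samples. Of their summed counts, *Hist1h3b* took 21%, 22.1% and 26.4% in the *ACVR1* WT samples with H3.1K27M and 23%, 35% and 34% in the *ACVR1* R206H samples with H3.1K27M. The Wilson 95% intervals of replicates 2 and 3 of the latter (32.8% to 37.2% and 32.3% to 35.8%) lay above those of the other 4 samples, whose highest bound was 30.3%. These intervals cover counting error only, and replicate 1 of the same group, at 23%, shows the spread between cultures. *Hist1h3a* took 50.7% to 65.2% over the 6 samples and *Hist1h3i* 12.1% to 17.3%. Of the 50-base stretches in their exons, 50.5% were unique in *Hist1h3a*, 39.6% in *Hist1h3b* and 12.4% in *Hist1h3i*. Their division of reads between near-identical genes is uncertain.

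The other 2 H3 genes with more counts share less with *Hist1h3a* over their annotated length and were read in every group. Their coding sequences were still 97.3% (*Hist1h3d*) and 93.6% (*Hist2h3c2*) identical to that of *Hist1h3a*. Reads of the delivered H3.1 in these 2 rows cannot be told apart either. *Hist1h3d* (ENSMUSG00000099583, chr13:23575763-23577011) had 1.55, 1.24 and 0.679 CPM with *ACVR1* WT and 2.16, 1.56 and 1.8 CPM with *ACVR1* R206H. With H3.1K27M it had 3.57, 3.34 and 3.28 CPM beside *ACVR1* WT and 4.75, 3.6 and 5.16 CPM beside *ACVR1* R206H. The groups overlapped in none of the 4 pairwise comparisons. Between the receptors, however, the nearest samples were almost equal, at 1.55 and 1.56 CPM without H3.1K27M and 3.57 and 3.6 CPM with it. *Hist1h3d* did not pass for the receptor without or with H3.1K27M (adjusted p = 0.94 and 0.057 by edgeR). It rose with H3.1K27M, with log2 fold changes of 1.54 beside *ACVR1* WT (adjusted p = 0.015 by edgeR, standard error 0.29) and 1.32 beside *ACVR1* R206H (adjusted p = 9.5e-05, standard error 0.19). *Hist2h3c2* (ENSMUSG00000081058, chr3:96238108-96239127) had 0.8, 1.03 and 1.31 CPM with *ACVR1* WT, 0.956, 1.72 and 1.85 CPM with *ACVR1* R206H, 2.53, 2.67 and 2.28 CPM with *ACVR1* WT plus H3.1K27M, and 3.9, 3.82 and 4 CPM with *ACVR1* R206H plus H3.1K27M. The H3.1K27M samples lay above those without it for either receptor (log2 fold changes 1.24 and 1.40, adjusted p = 0.014 and 0.00014). Beside *ACVR1* WT, both calls were lost without *ACVR1* WT replicate 2 or any 1 of the 3 *ACVR1* WT samples with H3.1K27M (adjusted p from 0.055 to 0.067), while the log2 fold changes held at 1.51 to 1.59 for *Hist1h3d* and 1.18 to 1.30 for *Hist2h3c2*. A replicate block also lost the call of *Hist2h3c2* beside *ACVR1* WT. *Hist2h3c2* shares 617 of its 50-base stretches with *Gm20634*, so that its level is uncertain. The remaining 7 H3 genes had few counts or none.

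**Figure D2:**
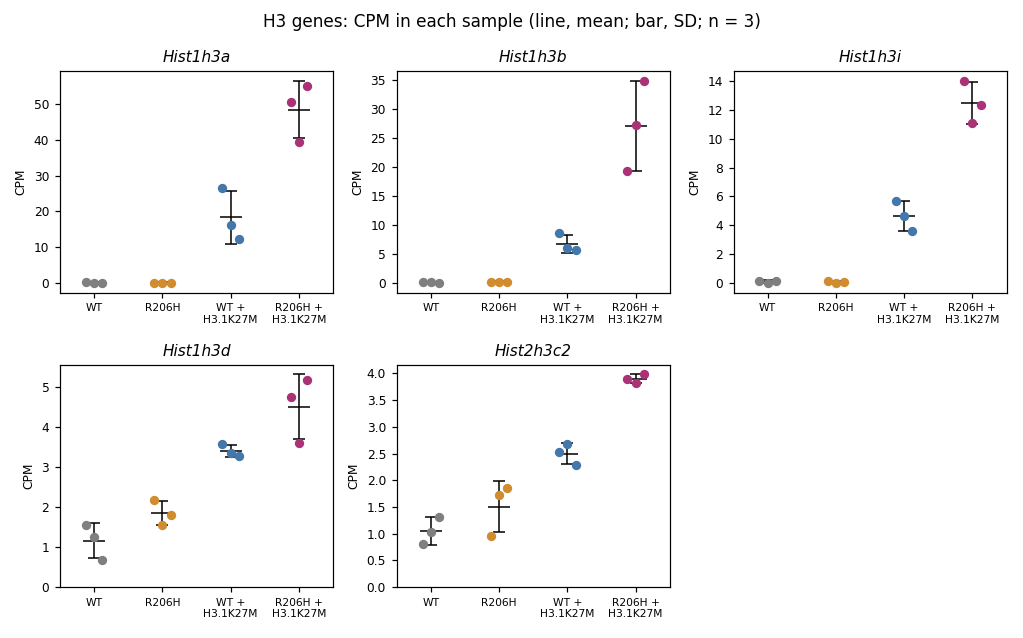
CPM (vertical axes, each gene on its own scale) of the 5 H3 genes with a mean of at least 10 normalized counts, in each sample by group; points are samples, lines means and bars SD (n = 3). Hist1h3a, Hist1h3b and Hist1h3i lie near 0 without H3.1K27M, with no sample over 0.194 CPM, while Hist1h3d and Hist2h3c2 are read in all 12 samples.

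The comparison of H3.1K27M with no H3.1K27M beside *ACVR1* WT tested 20 of the 70 genes, of which 11 rose and 1 fell, against 12.6% of the 15385 genes tested that rose and 10.4% that fell (23% in either direction). Without *Hist1h3a*, *Hist1h3b* and *Hist1h3i*, 8 of 17 rose and 1 fell. Of the 20 genes, 7 reached the mean of 10 only through the H3.1K27M samples, namely these 3 and *Hist1h1d*, *Hist1h2bh*, *Hist1h4h* and *Hist2h4*, and 4 of the 7 were among those that rose, so that the counts and medians describe the genes tested and are not evidence about all 70. The median log2 fold change of these 17 was 1.03, against -0.02 for all genes. All 3 tested H1 genes rose, as did 1 of 2 H2A genes, 2 of 6 H2B genes and all 5 H3 genes, and 0 of 4 H4 genes passed edgeR's test. DESeq2 called 1 of them, *Hist1h4i*, and a fit to all 12 samples called 3, *Hist1h4h*, *Hist1h4i* and *Hist2h4*. The 3 samples with H3.1K27M lay above the 3 without it for 16 of the 20 genes (13 of the 17) and below them for 1, against 23.5% and 21.1% of all genes tested. Leaving out *ACVR1* WT replicate 1, 16 of 21 rose and 1 fell, against 26.9% and 25.6% of all genes, whose calls went from 3533 to 8115. Leaving out *ACVR1* WT replicate 2 or any 1 of the 3 *ACVR1* WT samples with H3.1K27M, 6 rose and 0 fell, with 1037 to 1445 calls over all genes.

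With *ACVR1* R206H, the same comparison tested 21 genes, of which 15 rose and 1 fell, against 29.1% and 27.4% of 15482 genes (56.5% in either direction). Without the 3 H3 genes, 12 of 18 rose and 1 fell, and their median log2 fold change was 0.95 against 0.00 for all genes. Here 6 of the 21 reached the mean of 10 only through the H3.1K27M samples (the 3 H3 genes, *Hist1h2ad*, *Hist1h4h* and *Hist2h4*), and 4 of these 6 were among those that rose. By class, 3 of 3 H1 genes, 2 of 3 H2A genes, 3 of 6 H2B genes, 5 of 5 H3 genes and 2 of 4 H4 genes rose. DESeq2 called 12 that rose and 0 that fell, with 7737 calls over all genes, and lost *Hist1h2ad*, *Hist1h2bg*, *Hist1h4k* and *Hist3h2ba*. Samples did not overlap for 18 of the 21 genes in the higher direction (15 of the 18) and 2 in the lower one, against 29.3% and 33.8% of all genes tested.

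*Hist1h1c* (ENSMUSG00000036181, chr13:23738808-23740367) encodes H1.2, an abundant linker histone. It had 63.6, 56.5 and 51.7 CPM with *ACVR1* WT and 74.2, 66.2 and 76.8 CPM with *ACVR1* R206H. With H3.1K27M it had 131, 110 and 112 CPM beside *ACVR1* WT and 181, 149 and 203 CPM beside *ACVR1* R206H. No pair of groups overlapped. The log2 fold change with H3.1K27M was 1.03 beside *ACVR1* WT (standard error 0.11, adjusted p = 0.0026) and 1.32 beside *ACVR1* R206H (standard error 0.09, adjusted p = 2.1e-07). The linker histone genes *Hist1h1d* and *Hist1h1e*, named after their values were seen like the other genes outside the naming rule, rose as well. Beside *ACVR1* WT, the calls of this pair, too, were lost without *ACVR1* WT replicate 2 or any 1 of the 3 *ACVR1* WT samples with H3.1K27M. That of *Hist1h1e* was also lost without *ACVR1* WT replicate 3 and with a replicate block. Beside *ACVR1* WT, *Hist1h1d* (H1.3) entered the tests through the H3.1K27M samples alone. Its log2 fold change there, 2.02, is given without a p-value. Beside *ACVR1* R206H its log2 fold change was 1.45 (adjusted p = 9.5e-05). *Hist1h1e* (H1.4) had log2 fold changes of 1.27 beside *ACVR1* WT and 1.45 beside *ACVR1* R206H (adjusted p = 0.031 and 0.001). *Hist1h1e* shares 447 of its 50-base stretches with *Hist1h2be* on the same strand, so that reads of this stretch were left out of both.

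*Hist1h2bc* (ENSMUSG00000018102, chr13:23684199-23692908), an H2B gene, had 36.3, 37.4 and 36.1 CPM with *ACVR1* WT, 43.9, 41.9 and 41.9 CPM with *ACVR1* R206H, 57, 50.9 and 52 CPM with *ACVR1* WT plus H3.1K27M, and 64.1, 57.1 and 66.8 CPM with *ACVR1* R206H plus H3.1K27M. Its groups overlapped nowhere, but between the receptors with H3.1K27M the nearest samples, 57 and 57.1 CPM, were almost equal. Its rise with H3.1K27M was smaller than that of *Hist1h1c*, with log2 fold changes of 0.53 (standard error 0.07, adjusted p = 0.0053) and 0.59 (standard error 0.06, adjusted p = 4.6e-06). Its start lies 251 bases from that of the H2A gene *Hist1h2ac*, which is read from the opposite strand. *Hist1h2ac* rose by log2 fold changes of 1.14 beside *ACVR1* WT and 1.58 beside *ACVR1* R206H (adjusted p = 0.0071 and 6e-06), from 1.7 to 2.17 CPM over both groups without H3.1K27M to 4.01 to 6.05 CPM over both with it. Such a divergent pair, with starts at most 500 bases apart, was found 14 times among the 70 genes, each time between an H2A and an H2B gene.

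*Hist1h4i* (ENSMUSG00000060639, chr13:22040636-22041362), an H4 gene, had 6.26, 2.89 and 1.5 CPM with *ACVR1* WT, 6.69, 4.05 and 6.42 CPM with *ACVR1* R206H, 13.7, 9.74 and 9.88 CPM with *ACVR1* WT plus H3.1K27M, and 16, 13.6 and 16.3 CPM with *ACVR1* R206H plus H3.1K27M. Both groups with H3.1K27M lay above both groups without it. The log2 fold change was 1.44 beside *ACVR1* R206H (standard error 0.15, adjusted p = 5.7e-06), while that beside *ACVR1* WT, 1.63, did not pass edgeR's test (standard error 0.48, adjusted p = 0.054) but passed in DESeq2 (adjusted p = 0.0044). Without *ACVR1* WT replicate 1, the sample whose S phase genes stood highest, it was 2.33 (adjusted p = 0.00024).

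*Hist3h2ba*, an H2B gene, was the one that fell. It had 4.89, 9.13 and 7.04 CPM with *ACVR1* WT and 4.23, 3.63 and 3.52 CPM with *ACVR1* WT plus H3.1K27M, or -0.90 as a log2 fold change (standard error 0.25, adjusted p = 0.044). With *ACVR1* R206H it had 5.03, 6.5 and 6.22 CPM, and with *ACVR1* R206H plus H3.1K27M 4.99, 4.55 and 4.07 CPM (log2 fold change -0.36, standard error 0.14, adjusted p = 0.045). The groups did not overlap in either comparison, but in the second the nearest samples, 5.03 and 4.99 CPM, were almost equal. Both calls were near the threshold. When single libraries were left out, the first held only without *ACVR1* WT replicate 1. It had an adjusted p of 0.088 to 0.15 without any 1 of the other 5 libraries. It was also lost with a replicate block. DESeq2, its size factors in edgeR, no filter on low counts and a fit to all 12 samples kept the first call. The second was lost without replicate 2 or 3 of either group (adjusted p = 0.073 to 0.16). DESeq2, a replicate block and a fit to all 12 samples did not call the second either. *Hist3h2a*, its H2A neighbour in the same cluster, had 9.41, 13.5 and 9.51 CPM with *ACVR1* WT, 12.1, 13 and 11.4 CPM with *ACVR1* R206H, 12.5, 10.2 and 10.3 CPM with *ACVR1* WT plus H3.1K27M, and 13.4, 13.1 and 13.9 CPM with *ACVR1* R206H plus H3.1K27M. It did not pass the test for H3.1K27M beside either receptor (log2 fold changes 0.02 and 0.18, adjusted p = 0.96 and 0.074), although the second passed without *ACVR1* R206H replicate 2 (adjusted p = 0.039). *Hist3h2a* shares 660 of its 50-base stretches with *Trim17*. The H2B gene *Hist2h2be* lay between 10.3 and 12.7 CPM in all 12 samples, with log2 fold changes of -0.01 and -0.09 with H3.1K27M (standard errors 0.11 and 0.08).

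**Figure D3:**
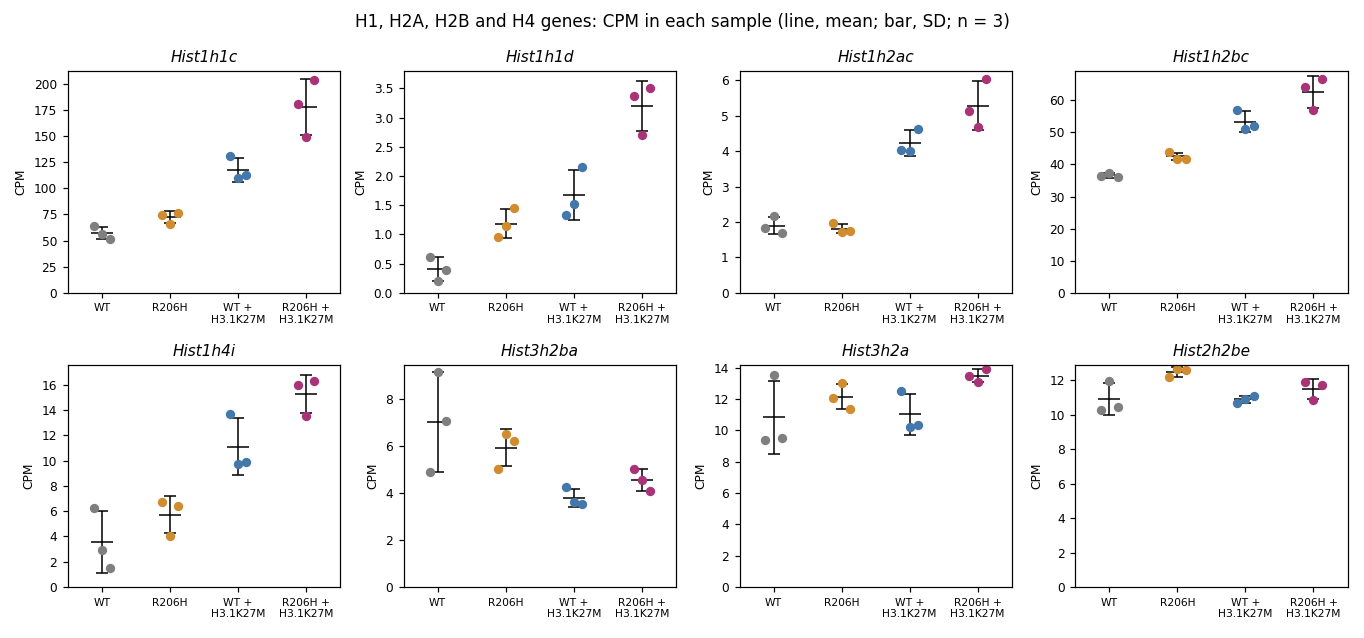
CPM (vertical axes, each gene on its own scale) of 8 genes for H1, H2A, H2B and H4 in each sample by group; points are samples, lines means and bars SD (n = 3). Samples of Hist1h1c and Hist1h2bc lie higher in each successive group without overlap, although neither was called for R206H against WT without H3.1K27M. Hist3h2ba lies lower with H3.1K27M, with calls near the threshold, and Hist2h2be stays between 10.3 and 12.7 CPM.

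In the presence of H3.1K27M, *ACVR1* R206H was compared with *ACVR1* WT over 25 of the 70 genes. Of these 11 rose and 0 fell, against 11.4% and 8.95% of 15672 genes (20.3% in either direction). Without *Hist1h3a*, *Hist1h3b* and *Hist1h3i* 8 of 22 rose. Genes for H1 (2 of 4), H2A (1 of 4), H2B (2 of 7), H3 (4 of 5) and H4 (2 of 5) were among the 11, and for 13 of the 25 the *ACVR1* R206H samples lay above all *ACVR1* WT samples, against 14.8% of all genes tested. On the log2 scale *Hist1h1c* rose by 0.63 (standard error 0.09, adjusted p = 0.00032), *Hist1h2bc* by 0.26 (standard error 0.06, adjusted p = 0.0076), *Hist1h4i* by 0.49 (standard error 0.12, adjusted p = 0.013), *Hist2h3c2* by 0.68 (standard error 0.14, adjusted p = 0.0047) and *Hist3h2a* by 0.32 (standard error 0.09, adjusted p = 0.024). *Hist1h3d*, at 0.44, missed the threshold (adjusted p = 0.057, or 0.014 without *ACVR1* R206H with H3.1K27M replicate 2), as did *Hist3h2ba*, at 0.28 (adjusted p = 0.18). The other genes that rose were *Hist1h1d*, at 0.96, *Hist1h2be*, at 0.57, and *Hist1h4k*, at 1.07 (adjusted p = 0.0053, 0.0025 and 0.011). *Hist1h4k* had 0.706, 0.525 and 0.52 CPM with *ACVR1* WT plus H3.1K27M and 1.09, 1.2 and 1.31 CPM with *ACVR1* R206H plus H3.1K27M. The number that rose was 7 without *ACVR1* WT with H3.1K27M replicate 2, where *Hist1h2bc*, *Hist1h4i*, *Hist1h4k* and *Hist3h2a* were lost, and 6 in a fit to all 12 samples, where *Hist1h1d*, *Hist1h2bc*, *Hist1h4i*, *Hist2h3c2* and *Hist3h2a* were lost. DESeq2 called 10, without *Hist1h4k*. *Hist1h4i* and *Hist3h2a* were also lost without replicate 3 of either group (adjusted p = 0.052 to 0.092), and *Hist3h2a* without *ACVR1* R206H with H3.1K27M replicate 1 (adjusted p = 0.059).

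Without H3.1K27M, 15 of the 70 genes were tested for *ACVR1* R206H against *ACVR1* WT and 0 passed the threshold, against 0% of 15066 genes. An unadjusted p under 0.05 was reached by 5 of the 15, against 3.54% of all genes, and DESeq2 called 0 of the 15 and 26 of all genes. The log2 fold change was 0.33 for *Hist1h1c* (standard error 0.10), 0.21 for *Hist1h2bc* (standard error 0.06), 0.68 for *Hist1h4i* (standard error 0.51) and -0.25 for *Hist3h2ba* (standard error 0.25), each with an adjusted p of 0.94. The values were positive for 13 of the 15 genes. The samples of the 2 groups did not overlap for 8 of the 15 genes, all higher with *ACVR1* R206H, against 5.34% of all genes tested. Of the 15 genes, 3 entered the tests through the *ACVR1* R206H samples alone, namely *Hist1h1d*, *Hist1h2bh* and *Hist1h4k*. *Hist1h1d* and *Hist1h4k* were among those without overlap. The counts of positive values and of genes without overlap thus describe the genes tested and are not evidence about all 70. Leaving out *ACVR1* WT replicate 1, *Hist1h1c*, *Hist1h1d* and *Hist1h4i* rose, 3 of 14 tested, against 12.1% of all genes that rose in that fit. Among these, *Hist1h1d* is a gene that entered the main tests through the *ACVR1* R206H samples alone. The absence of calls thus depended on 1 library.

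Whether the effect of *ACVR1* R206H differed with H3.1K27M was tested as an interaction over all 12 samples. None of 20 clustered histone genes passed edgeR's test, 0 had an unadjusted p under 0.05, and DESeq2 called 0, with 1 at an unadjusted p under 0.05. Among all 15445 genes 0.0712% passed. The interaction was 0.30 for *Hist1h1c* (standard error 0.16, adjusted p = 0.68), 0.06 for *Hist1h2bc* (standard error 0.09, adjusted p = 0.84) and 0.16 for *Hist2h3c2* (standard error 0.33, adjusted p = 0.88) on the log2 scale. A different response of these genes to *ACVR1* R206H with and without H3.1K27M was therefore not detectable, and the standard errors leave room for differences as large as the effects themselves. Without *ACVR1* WT replicate 1, *Hist1h2bh* and *Hist3h2ba* passed, 2 of 20, while 4112 of 15459 genes were called.

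**Figure D4:**
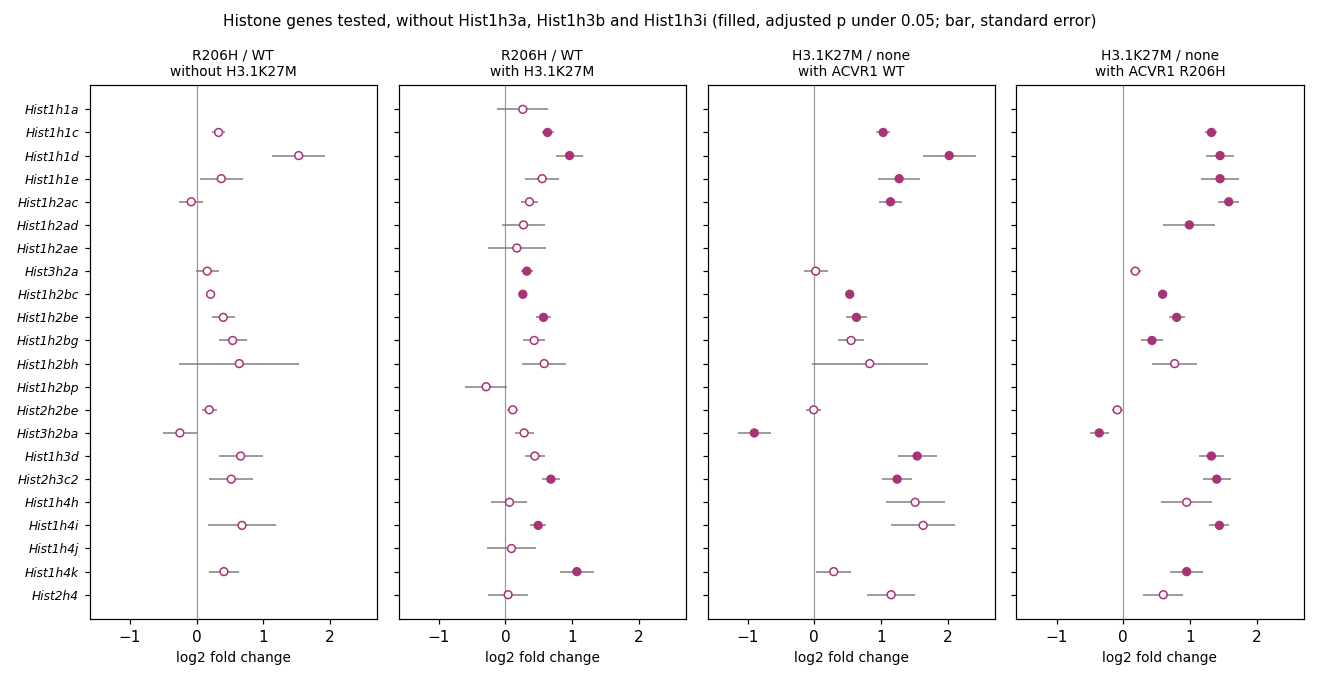
Log2 fold change (horizontal axes) with its standard error for each clustered histone gene tested, other than Hist1h3a, Hist1h3b and Hist1h3i, in the 4 pairwise comparisons; filled points have an adjusted p under 0.05 in edgeR's test, and a missing point was not tested. Most points lie right of 0 in the H3.1K27M comparisons, with Hist3h2ba, at -0.90 and -0.36, on the left.

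The promoters of 62 of the 70 genes were found in a RefSeq table (GRCm38.p6), as 63 windows from 250 bases before the start to 50 after it, and were searched on both strands for 4 motifs. CCAAT, a box bound by NF-Y, was present in 85.7% of the windows against 37.4% of all 32851 promoters of this length. It was found in every window of the H1, H2A, H2B and H3 genes and in 25% of those of H4 genes. TATAAA was present in 55.6% against 13.6%. ATTTGCAT, the octamer bound by OCT1 (*Pou2f1*), was present in 38.9% of the H2A windows, 41.2% of the H2B windows and none of the others, against 1.74% of all promoters. Divergent H2A and H2B genes can share this stretch, so that their windows are not independent. AAACACA, known from H1 promoters, was present in 83.3% of the H1 windows against 7.18% of all promoters. These counts describe letters and do not show that a factor was bound.

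The 140 bases before the start are shown for a gene that rose with H3.1K27M beside both receptors, one that passed beside *ACVR1* R206H, and the one that fell, with the motifs found in them in capitals.
Hist1h1c (chr13:23738667-23738806, plus strand): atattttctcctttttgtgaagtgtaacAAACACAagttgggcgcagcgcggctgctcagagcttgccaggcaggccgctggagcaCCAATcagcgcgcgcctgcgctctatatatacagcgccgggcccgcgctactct
Hist1h4i (chr13:22041363-22041502, minus strand): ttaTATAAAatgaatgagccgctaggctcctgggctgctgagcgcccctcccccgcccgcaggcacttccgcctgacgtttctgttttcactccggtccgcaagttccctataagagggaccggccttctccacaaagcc
Hist3h2ba (chr11:58948771-58948910, plus strand): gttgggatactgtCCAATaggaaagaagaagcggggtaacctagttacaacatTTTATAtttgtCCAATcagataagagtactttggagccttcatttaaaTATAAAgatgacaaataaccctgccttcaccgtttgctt
*Hist3h2ba*, which fell, has CCAAT and TATAAA as do many of the genes that rose. *Hist1h4i* lacks CCAAT in this stretch.

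Genes with a known link to histone supply were set beside the clustered genes. S phase genes, such as *Pcna* (the polymerase clamp) and *Mcm2* (a helicase subunit), are the first such list. Beside H3.1K27M, 31 of 43 S phase genes fell with *ACVR1* R206H and 0 rose (median log2 fold change -0.25), against 8.95% of all genes that fell, while 11 of 25 clustered histone genes rose. *Pcna* fell by 0.29 on the log2 scale (adjusted p = 0.00046) and *Mcm2* fell by 0.39 (adjusted p = 0.00054). With *ACVR1* R206H, 22 of the 43 fell with H3.1K27M and 1 rose (median -0.18), against 27.4% of all genes that fell. With *ACVR1* WT, 0 of the 43 passed for H3.1K27M, with a median of 0.46, and without H3.1K27M 0 of the 43 passed for the receptor, although all 43 values were positive (median 0.39). Both depended on *ACVR1* WT replicate 1. Without it 40 of the 43 rose in either comparison (93%, against 26.9% and 12.1% of all genes), and in the interaction 40 were lower (93%, against 13% of all genes, median -1.63).

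Of 18 factors that process histone messages, 0 rose in any of the 4 pairwise comparisons. Without *ACVR1* WT replicate 1, 5 rose and 4 fell with H3.1K27M (27.8% and 22.2%, against 26.9% and 25.6% of all genes). In the same setting 4 rose with *ACVR1* R206H (22.2%, against 12.1% of all genes). In the fits with every sample, 11 fell with H3.1K27M beside *ACVR1* R206H (61.1%, against 27.4% of all genes) and 2 beside *ACVR1* WT (11.1%, against 10.4%). For *ACVR1* R206H beside H3.1K27M 5 fell (27.8%, against 8.95%). *Slbp*, which binds the stem-loop, passed in none, with log2 fold changes between -0.12 and 0.23. Of 21 histone chaperones and assembly factors, 12 fell and 2 rose with H3.1K27M beside *ACVR1* R206H, against 27.4% and 29.1% of all genes, among them *Nasp*, an H3-H4 and H1 chaperone, which fell by 0.52 (adjusted p = 9.5e-07), and *Chaf1a*, the large subunit of CAF-1, which fell by 0.29 (adjusted p = 0.0055). Beside *ACVR1* WT 0 of 21 passed, or 11 that rose without *ACVR1* WT replicate 1 (52.4%, against 26.9% of all genes). For *ACVR1* R206H beside H3.1K27M 8 fell, against 8.95% of all genes.

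Of 11 genes for replication-independent variants, 2 rose and 8 fell with H3.1K27M beside *ACVR1* R206H, against 29.1% and 27.4% of all genes. Beside *ACVR1* WT, 1 rose and 2 fell, against 12.6% and 10.4% of all genes. Without *ACVR1* WT replicate 1 these were 5 and 3 (45.5% and 27.3%, against 26.9% and 25.6% of all genes). *H2afj*, which encodes H2A.J, rose by 1.33 on the log2 scale in both (adjusted p = 3.9e-07 and 0.0097), and *H1f0*, the linker histone H1.0, by 0.34 beside *ACVR1* R206H (adjusted p = 2.7e-05). The H3.3 genes *H3f3a* and *H3f3b* fell by 0.27 and 0.18 there (adjusted p = 0.0011 and 0.0054), and the macroH2A genes *H2afy* and *H2afy2* fell beside both receptors, by 0.46 and 0.69 with *ACVR1* WT (adjusted p = 0.008 and 0.0026) and by 0.55 and 0.74 with *ACVR1* R206H (adjusted p = 1.3e-06 for each). The comparisons that share a group of samples are not independent of each other.

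**Figure D5:**
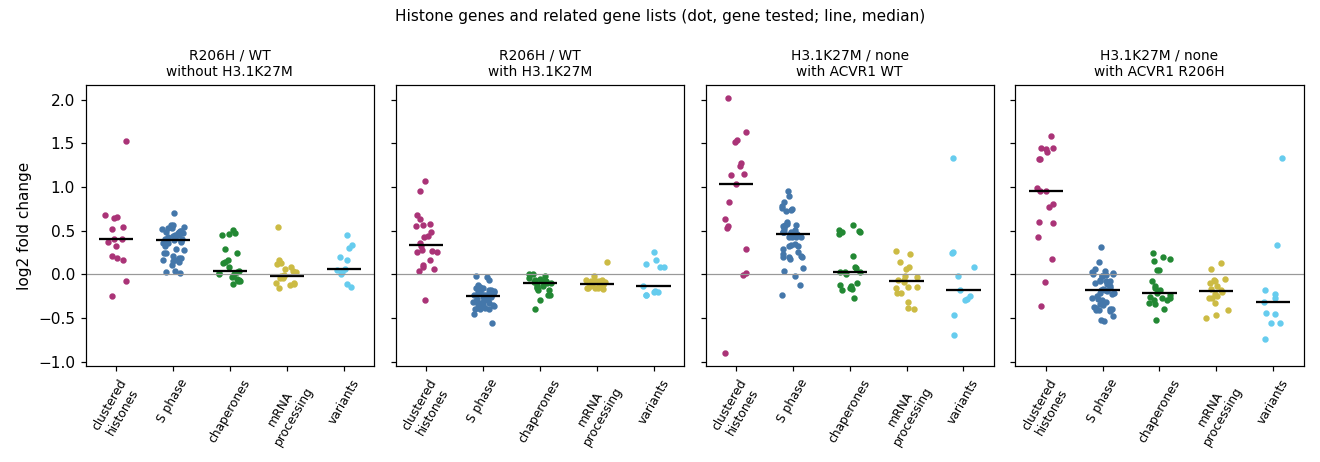
Log2 fold change (vertical axis) of each gene tested in 5 lists for the 4 pairwise comparisons; dots are genes and lines list medians, and clustered histones are shown without Hist1h3a, Hist1h3b and Hist1h3i. Beside H3.1K27M the S phase genes have a median of -0.25 for R206H against WT, while the clustered histone genes lie mostly above 0.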

How the data were processed

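Per the labels and the study's methods, paired-end reads were aligned with STAR (2.6.0b-1) to mm10 in Galaxy and assigned to Ensembl genes by HTSeq-count (not stranded, union mode, alignment quality of at least 10, no read that matched several places), and the authors deposited raw counts per gene for each sample. Reads shared by near-identical histone genes are thus missing from these counts, and genes that overlap on opposite strands cannot be told apart. Of 54532 rows, 54495 were found in GENCODE M21, which supplied symbols, exons and sequences.

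Each pairwise comparison was fitted on its 6 samples with edgeR 4.0.16 (R 4.3.3; quasi-likelihood F test, TMM), after a filter at a mean normalized count of 10, with Benjamini-Hochberg adjustment over all genes tested and a threshold of 0.05. Every adjusted p comes from that test unless DESeq2 is named. The interaction was fitted on 12 samples. A standard error is the log2 fold change divided by the square root of F. The scripts were tested on simulated counts. Alternatives were DESeq2 1.42.0, its size factors in edgeR, no filter, a replicate block, 1 fit to all samples and leaving out each sample. The members and gene lists were chosen with earlier results of these data known. The genes given in every sample were *Hist1h3a* and the other H3 genes with a mean of at least 10, the 4 smallest adjusted p of each direction and comparison, the 8 highest per kilobase, and any called in the interaction.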

Additional observations from a re-analysis of the deposited data

How the results depend on the processing

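Counts of clustered histone genes that passed the threshold were 0, 11, 12, 16 and 0 for *ACVR1* R206H without and with H3.1K27M, H3.1K27M with *ACVR1* WT and with *ACVR1* R206H, and the interaction. For *ACVR1* R206H beside H3.1K27M, fitting all 12 samples gave 6 in place of 11. Dropping 1 sample gave 0 to 3, 7 to 13, 6 to 17, 14 to 16 and 0 to 2 in the same order. The 3 and the 2 came without *ACVR1* WT replicate 1, which also gave the 17. The 7 came without *ACVR1* WT with H3.1K27M replicate 2. The 6 came without *ACVR1* WT replicate 2 or without any 1 of the 3 samples of *ACVR1* WT with H3.1K27M, and the calls lost were those of *Hist1h1d*, *Hist1h1e*, *Hist1h2be*, *Hist1h3d*, *Hist2h3c2* and *Hist3h2ba*. DESeq2, its size factors in edgeR and no filter on low counts kept each count within 1.5 times. The log2 fold change of *Hist3h2a* with H3.1K27M beside *ACVR1* WT, 0.02, became -0.07 without *ACVR1* WT replicate 1, *ACVR1* WT replicate 3 or *ACVR1* WT with H3.1K27M replicate 1, and 0.21 without *ACVR1* WT replicate 2. Same-numbered samples did not deviate together in every pair (correlations of -0.14 to 0.42), so that the numbers were not taken as pairs, and a replicate block gave 0, 11, 9, 15 and 0. The causes were not tested. Neither low depth nor reads that match several places was tested as the source of the low counts in 41 genes and of the 9 at 0.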
